A study of Mus musculus with 17 samples.

Results

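The neurons described here are 321 hand-picked single cells of the mouse anterior thalamic nuclei in which the genes Car4, Ccdc141, Itga4, Kcnq3 and Kcnf1 (set A) outweighed 2 other gene sets. They were taken from 912 wells with at least 1000 mouse genes counted, of 1216 wells with an animal number. Of those 912 cells, 840 had a count of Slc17a6, the vesicular glutamate transporter gene of thalamic relay neurons, and 750 of these had no count of C1ql2, a gene of anterodorsal neurons. In each of the 750 cells the counts were scaled to 10000 and log-transformed. The z values over cells were then averaged for set A, for set B (Tnnt1, Cacng4, Foxp1, Rreb1 and Col16a1) and for set C (Calb2, Necab1, Fbln1, Rcn1 and Cck). A cell belonged to the set with the highest mean, which gave 321 set A cells (42.8% of the scored cells), 237 set B cells and 192 set C cells. The members were therefore chosen from the same counts that are described here. Differences between the cell classes are given as values over 3 animals with no test.

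The cells came from wild-type mice of the B6 strain, numbered animals 1, 2 and 3 in the deposited well table, and were dissociated from acute slices of the dissected nuclei. The other tissue was 3 Visium sections of wild-type brain, an array method that captures RNA of a tissue slice on a grid of barcoded spots. Sections 2 and 6 were labelled posterior and section 5 anterior. Age, sex and whether the sections came from separate animals are not given in the sources used here, so p-values over sections measure only the spread between these sections. No treatment or mutant was compared.

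The anterior thalamic nuclei relay signals between the mammillary bodies, the hippocampal formation and the cingulate and retrosplenial cortex. They consist of an anterodorsal nucleus rich in head-direction cells, a large anteroventral nucleus and an anteromedial nucleus that joins the midline thalamus. Their relay neurons are glutamatergic, and their firing depends on potassium, calcium and HCN channels. Col27a1, which encodes a fibrillar collagen, Nexn, which encodes an actin-binding protein, and Npsr1, which encodes the neuropeptide S receptor, are the other genes listed here for anteroventral neurons.

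Animal 1 gave 25 members (30.1% of its scored cells), animal 2 gave 142 (50.7%) and animal 3 gave 154 (39.8%). The share ranged from 27.1% to 46.2% over the 2 plates of animal 1, from 50.0% to 52.2% over 4 plates of animal 2 and from 30.2% to 50.8% over 6 plates of animal 3. The median member held 49498, 9575.5 and 60145.5 counts of mouse genes in animals 1, 2 and 3. Animal 2 stood apart in the share of mouse genes among all counts of mouse genes and spike-in sequences (control RNA added to the wells). The median share of its members was 10.4%, against 92.4% and 90.4% in animals 1 and 3. The median mitochondrial share of members was 2.24%, 3.51% and 3.26%. Plates reused the same 384 well barcodes, and 9 wells, 2 of them members, had a recorded source that belongs to another animal.

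Scores formed a continuum at the class border. The lowest margins by which set A exceeded the next set were 0.00274, 0.00916 and 0.0139 mean z units, and the nearest cells outside had margins of -0.00321, -0.0155 and -0.0170. In 48 members the margin was under 0.2, and 46 other cells were within 0.2 of membership. The median margin of members was 0.604. The second-highest score was that of set C in 223 members and of set B in 98. Counts of all 5 set A genes were present in 46 members, of 4 in 104, of 3 in 89, of 2 in 73 and of 1 in 9. Those 9 cells were shallow, with a median of 5159 counts against 24821.5 in the other members. Among cells outside, 40 set B cells and 24 set C cells also held counts of at least 3 set A genes.

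**Figure D1:**
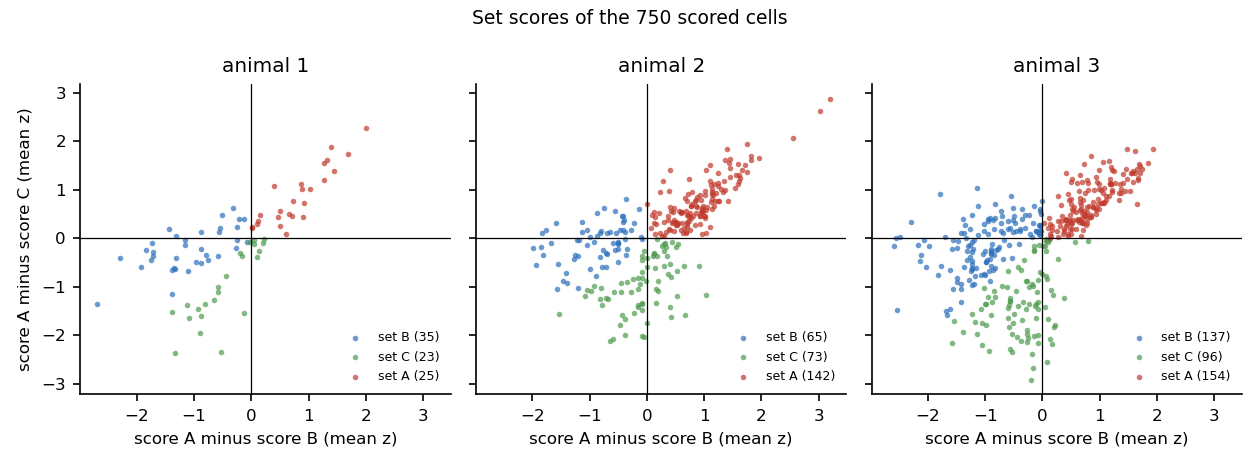
Each point is 1 of the 750 scored cells, by animal, with the set A score minus the set B score on the x axis and minus the set C score on the y axis (mean z units). The 321 set A cells fill the upper right quadrant and reach its borders without a gap, with 48 of them within 0.2 of another class.

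The 250 bases before the annotated start of Car4, Itga4 and Kcnf1 are shown as examples of the genes that the rule used: a carbonic anhydrase, an integrin and a channel subunit. RefSeq entries on GRCm38.p6 matched 4 of the 5 set A genes. All sequences run 5′ to 3′ on the gene's strand. Capitals mark matches to a searched motif.
Car4, plus strand, chr11:84957504-84957753: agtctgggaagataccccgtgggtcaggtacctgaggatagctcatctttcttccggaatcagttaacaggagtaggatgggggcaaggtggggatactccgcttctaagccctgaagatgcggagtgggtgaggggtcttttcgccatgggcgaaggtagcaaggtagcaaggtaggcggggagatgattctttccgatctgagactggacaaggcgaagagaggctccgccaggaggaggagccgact
Itga4, plus strand, chr2:79255176-79255425: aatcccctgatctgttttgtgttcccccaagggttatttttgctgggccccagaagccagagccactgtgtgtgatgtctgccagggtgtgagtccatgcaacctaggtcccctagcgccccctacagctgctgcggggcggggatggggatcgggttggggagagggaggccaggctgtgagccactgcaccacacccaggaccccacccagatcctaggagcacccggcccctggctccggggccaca
Kcnf1, minus strand, chr12:17176889-17177138: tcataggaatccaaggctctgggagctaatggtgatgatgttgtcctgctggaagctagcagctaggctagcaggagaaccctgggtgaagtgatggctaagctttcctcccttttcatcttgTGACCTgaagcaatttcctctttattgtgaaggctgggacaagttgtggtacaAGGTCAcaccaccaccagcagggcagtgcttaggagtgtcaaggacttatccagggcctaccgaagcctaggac
The motifs were searched on both strands: CTTTGAT (the TCF/LEF site), AGGTCA (the ROR core site) and CACGTG (an E-box). The Kcnf1 window held 2 ROR core sites in opposite orientation, beginning 127 and 74 bases before the start, and these are the capitals above. The windows of Car4, Itga4 and Ccdc141 held none of the 3 motifs. Over 32851 promoter windows of the same length, 3.21% held CTTTGAT, 14.02% held AGGTCA and 6.02% held CACGTG. A match is a string of letters and was not tested for binding.

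The set A genes themselves were not equally selective. Values are CPM, the summed counts of each class scaled to a total of 1000000, in animals 1, 2 and 3. Car4 (ENSMUSG00000000805), a membrane-anchored carbonic anhydrase that speeds the exchange of carbon dioxide and bicarbonate, was at 152, 209 and 169.7 CPM in set A cells. It was at 20.9, 5.46 and 7.17 in set B cells and 18.3, 35.04 and 12.9 in set C cells. Every animal's set A value was above every value of the other sets. The mean was 177 ± 29.5 CPM (SD, n = 3 animals). In C1ql2-positive cells it was 83.9 ± 16.9 CPM, between set A and the other sets.

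Ccdc141 (ENSMUSG00000044033), a coiled-coil protein gene linked to neuronal migration, was at 372, 189.6 and 214 CPM in set A cells. The set B values were 25.8, 80.1 and 54.6 and the set C values 73.1, 16.9 and 10.2, with no overlap. Itga4 (ENSMUSG00000027009), the alpha-4 integrin subunit that binds fibronectin and VCAM1, was at 54.6, 88.7 and 73.7 CPM in set A cells. Its means were 10.4 ± 6.69, 6.26 ± 4.702 and 9.74 ± 6.51 CPM in set B, set C and C1ql2-positive cells. Itga4 was thus low in each of the other 3 groups of neurons.

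Kcnq3 (ENSMUSG00000056258), a subunit of the M-current potassium channel that restrains repetitive firing, was at 399, 300.1 and 289 CPM in set A cells and 170.4, 239 and 288 in set B cells. In animal 3 these were level. Set C cells held 83.3, 118 and 123 CPM. Kcnf1 (ENSMUSG00000051726), a silent modulatory subunit of voltage-gated potassium channels, was at 215, 137 and 118 CPM in set A cells, above the set B values of 71.1, 52.8 and 49.9 and the set C values of 40.2, 79.2 and 54.9. In animal 2 it was under 2-fold above set C. Car4, Ccdc141 and Itga4 were at least 2-fold above both other sets in 3 of 3 animals, and the 2 channel genes were not.

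The other anteroventral genes, which the rule did not name, lay highest in the same cells. Col27a1 was at 641, 368 and 423 CPM in set A cells, 206, 322 and 276 in set B cells and 189, 99.9 and 75.2 in set C cells. Its set A and set B ranges were close, with the lowest set A value above the highest set B value. C1ql2-positive cells held 341 ± 183 CPM and overlapped with set A. Nexn was at 951, 680.1 and 777 CPM against 459, 373 and 347 in set B cells and 358, 326 and 175 in set C cells, with no overlap. Npsr1 was at 34.97, 27.97 and 39.5 CPM in set A cells. The set B values were 32.1, 0 and 3.12, so that animal 1 did not separate the classes. The anterodorsal genes C1ql2, Serpinb7 and Gng13 summed to 4.197 to 9.31 CPM in set A, 1.82 to 5.84 in set B and 5.12 to 16.3 in set C cells. C1ql2 is at 0 in all 3 by the rule, and the list did not separate them. The anteromedial and midline genes Calb1, Cdh4 and Slc17a8 summed to 34.1 to 48.3 CPM, against 176 to 454 in set B and 336 to 753 in set C cells. Most of each sum was Calb1. In animal 2 it was 34.1 of 44.3 CPM in set A and 404 of 406 in set B cells. Cdh4 and Slc17a8 together were thus not lowest in set A cells there. Set A and C1ql2 chose the cells and give no support to the label anteroventral-like. Of the 3 sets, Col27a1, Nexn and Npsr1 were highest and Calb1 was lowest in set A cells, and these genes did not go against the label.

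**Figure D2:**
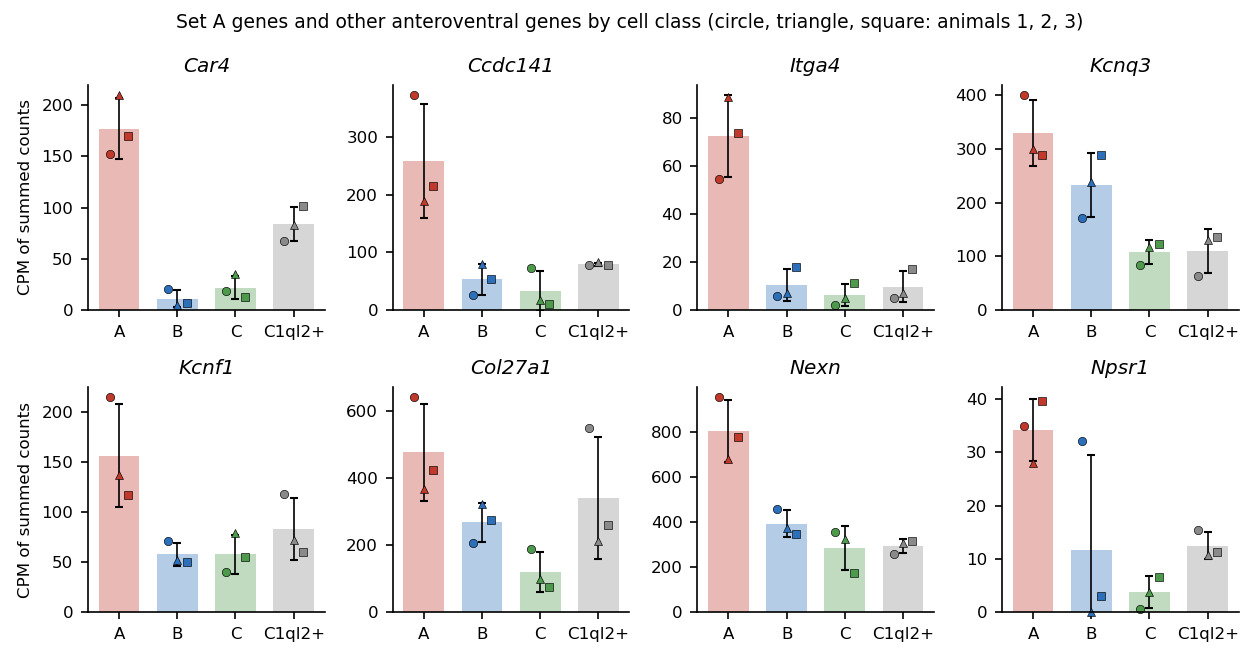
Bars give the mean CPM of summed counts over 3 animals and error bars the SD, for set A, set B, set C and C1ql2-positive cells, with 1 symbol per animal. Itga4 at 72.3 CPM stood alone in set A cells, whereas Kcnq3 was also at 232 CPM in set B cells and Col27a1 at 341 CPM in C1ql2-positive cells.

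A count of a set A gene was not present in every member. Car4 was counted in 68.9% ± 13.6 of set A cells (SD, n = 3 animals), in 13.5% ± 10.9 of set B cells and in 19.2% ± 2.54 of set C cells. With each cell thinned to 5000 counts these became 45.1% ± 5.67, 4.03% ± 1.76 and 6.73% ± 4.02. Thinning left out 19 set A cells, all of animal 2. Itga4 was counted in 47.6% ± 8.39 of set A cells, or 23.4% ± 6.45 thinned, and Ccdc141 in 62.4% ± 8.52, or 47.9% ± 3.43 thinned. Kcnq3 had the widest reach, with 89.6% ± 4.65 of set A cells and 80.04% ± 12.1 of set B cells. Free RNA can give counts in cells that do not transcribe a gene. The median depths of set B cells were 49176, 6734 and 41936 counts, near or below those of the members.

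Over all measured genes, 8614 had a mean of at least 20 CPM in a class. Of these, 16 were called at least 2-fold above both set B and set C cells in 3 of 3 animals (0.186%), and 46 at least 2-fold below both (0.534%). This 2-fold rule also asked for a mean of at least 20 CPM in set A cells for a higher gene. For a lower gene it asked for at least 20 CPM in both set B and set C cells, so a gene low in either could not be called. The classes were cut from these counts, so nothing is read from these percentages. Of the 15 set genes, Car4, Ccdc141 and Itga4 are among the 16 and Necab1, Rcn1 and Rreb1 among the 46. The other 13 higher genes were Mgst2, Dkk3, Cgnl1, Adamts8, Unc5d, Akain1, Dgkk, Gm42528, Vamp1, Hsbp1l1, Gjc1, Gsg1l and Steap2. Log2 ratios below compare set A with the mean of set B and set C, with 1 CPM added, as mean ± SD over 3 animals, and understate the change of low genes. Where values follow the word against, those of set B come first and those of set C next. With 1 animal left out, so that 2 of 2 had to meet the rule, 46, 44 and 36 genes were higher and 75, 73 and 64 lower without animals 1, 2 and 3.

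Vamp1, the synaptic vesicle SNARE of fast-releasing terminals, was the most abundant of them. It was at 441, 449.5 and 458 CPM in set A cells, 96.9, 158 and 140.3 in set B cells and 86.3, 167 and 131 in set C cells (log2 ratio 1.82 ± 0.40). The 3 set A values lay within a narrow range far above all others. C1ql2-positive cells were also high, at 399 ± 102 CPM. Dkk3, a secreted protein of the Dickkopf family, was at 85.3, 41.6 and 77.98 CPM in set A cells and at most 10.7 CPM in set B or set C cells (log2 ratio 3.59 ± 0.41). It was higher again in C1ql2-positive cells, at 135 ± 33.2 CPM.

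Mgst2, a microsomal glutathione transferase, was at 48.96, 22.5 and 21.2 CPM in set A cells and at or below 2.43 CPM in set B and set C cells of each animal (log2 ratio 3.86 ± 0.98). Unc5d, a netrin receptor of the repulsive kind, was at 10.5, 43.7 and 41.04 CPM against 1.46, 1.82 and 9.36 and 0.731, 12.98 and 14.6 in sets B and C. Gsg1l, an auxiliary subunit of AMPA receptors, was at 232, 97.5 and 109 CPM (log2 ratio 1.68 ± 0.29). Gjc1, which encodes the gap junction protein connexin 45, was at 58.1, 82.5 and 81.6 CPM against means of 22.8 ± 2.42 and 20.3 ± 6.35. Dgkk, a diacylglycerol kinase, was at 88.1, 27.3 and 28.5 CPM, and Cgnl1, a junction protein, at 9.79, 40.2 and 27.6 CPM. Adamts8, a secreted protease, was at 6.99, 22.5 and 32.4 CPM, with animal 1 below the others. Of the 16 genes, Ccdc141, Itga4, Unc5d and Cgnl1 were also at least 2-fold above C1ql2-positive cells in 3 of 3 animals.

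The genes low in set A cells were more numerous. Of the 46, only 8 were also at least 2-fold below C1ql2-positive cells in 3 of 3 animals. Gabra2, Gbx2, Etv1, Kcnmb4 and Tenm1 were among them. Calb1, which encodes the calcium buffer calbindin and marks anteromedial and midline neurons, was at 43.4, 34.1 and 26.2 CPM in set A cells. It was at 154, 404 and 425 in set B cells and 321, 385 and 716 in set C cells (log2 ratio -3.44 ± 0.99). Every set B and set C value lay more than 3 times above the highest set A value. C1ql2-positive cells were as low, at 14.9 ± 18.4 CPM.

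Of 15 measured GABA and glycine receptor genes, Gabra2, Gabra3 and Gabrg3 were lower and 12 were neither. These encode the alpha-2, alpha-3 and gamma-3 subunits of the GABA-A receptor, a chloride channel. Gabra2 was at 3.497, 2.05 and 6.86 CPM in set A cells, 80.3, 34.6 and 94.3 in set B cells and 131, 96.03 and 177 in set C cells (log2 ratio -4.38 ± 0.23). C1ql2-positive cells held 71.1 ± 29.2 CPM, so Gabra2 was low in set A cells against all 3 other groups. Gabra3 was at 0, 1.36 and 0.205 CPM against means of 26.5 ± 7.45 and 29.8 ± 4.75, and Gabrg3 at 2.098, 3.41 and 3.17 against 54.9 ± 28.6 and 31.4 ± 15.4. Both were also low in C1ql2-positive cells, at 0.229 ± 0.396 and 1.37 ± 2.38 CPM. The list's median log2 ratio was -0.20, beside -0.050 over all 8614 genes. The thalamic subunits did not share this pattern. Gabra4, which pairs with Gabrd in extrasynaptic thalamic receptors, was at 845, 595 and 522 CPM in sets A, B and C (log2 ratio 0.60 ± 0.14). Gabrd was at 424, 286 and 229.8 CPM (log2 ratio 0.72 ± 0.24). Gabra4 and Gabrd were picked after their values were seen.

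Monoamine breakdown and vesicle genes were also among the 46. Maob and Maoa, the mitochondrial monoamine oxidases, were at 7.69, 3.41 and 7.78 and 0.699, 2.73 and 7.98 CPM in set A cells. Maob was at 75.02 ± 18.2 and 122 ± 14.3 CPM in sets B and C, and Maoa at 26.9 ± 2.17 and 22.5 ± 16.1. Scg2, the secretogranin of dense-core vesicles, was at 111, 162 and 118 CPM against 480.0, 412 and 389.8 and 729, 522 and 837. Stmn1, the tubulin-binding protein stathmin, was at 425, 241 and 288 CPM against 825 ± 186 and 1561 ± 194.

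Among 24 measured genes of transmitter release, Vamp1 was higher, Syt5 and Stx1a were lower and 21 were neither (median log2 ratio 0.031). Syt5, a synaptotagmin, was at 0, 12.3 and 8.49 CPM in set A cells against 103, 76.5 and 85.3 and 98.7, 104 and 145. Stx1a, the plasma membrane SNARE syntaxin 1A, was at 18.2, 14.3 and 19.5 CPM against 49.3 ± 9.63 and 76.1 ± 24.5. Cplx1, a complexin that clamps release and that was picked after its value was seen, fell short of the 2-fold rule at 1481, 706 and 628 CPM (log2 ratio 1.14 ± 0.34).

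Of the 5 channel lists, 4 genes met the 2-fold rule, all of them lower: Scn3b, Scn9a, Kcnmb4 and Cacnb3. None of the 20 measured voltage-gated potassium channels met it, and their median log2 ratio was 0.28. Those of the set A list, Kcnq3 and Kcnf1, had log2 ratios of 0.96 ± 0.61 and 1.38 ± 0.48. At the other end Kcna5 had -3.51 ± 1.19 and Kcnc4 -3.08 ± 1.36. Neither met the rule, which includes the minimum CPM in both other sets. Of 13 HCN and sodium channel genes, Scn3b and Scn9a were lower and 11 neither. Scn3b, a sodium channel beta subunit, was at 83.9, 30.7 and 67.95 CPM in set A cells against 181, 228 and 264 and 448, 374 and 541. Kcnmb4, an auxiliary subunit of calcium-activated potassium channels, and Cacnb3, a calcium channel beta subunit, were lower, at log2 ratios of -2.85 ± 0.41 and -1.93 ± 0.78.

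Of 42 measured thalamic transcription factor genes, Gbx2, Etv1 and Tox were lower and 39 neither (median log2 ratio -0.071). Gbx2, a homeobox gene needed for thalamic development, was at 4.896, 4.09 and 9.21 CPM in set A cells, 17.5, 21.9 and 47.7 in set B cells and 48.3, 64.9 and 134 in set C cells. C1ql2-positive cells held 44.6 ± 23.6 CPM. Etv1, an ETS factor, had a log2 ratio of -2.77 ± 0.094 and Tox, an HMG-box factor, -4.08 ± 0.94. The general thalamic genes differed less between classes: Tcf7l2 was at 759.7, 699.9 and 697 CPM in set A cells (log2 ratio -0.27 ± 0.13) and Slc17a6 at 928, 908 and 838 CPM (log2 ratio -0.18 ± 0.039).

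No gene of cholesterol synthesis met the 2-fold rule against both classes, but 18 of the 21 measured were below the mean of set B and set C in 3 of 3 animals and 0 were above. Over all 8614 genes, 1841 were below and 1440 above in that way. The list's median log2 ratio was -0.89. Fdft1, squalene synthase, was at 25.2, 30.7 and 27.4 CPM in set A cells, 33.1, 43.7 and 68.3 in set B cells and 143, 123 and 137 in set C cells. Lss, lanosterol synthase, had a log2 ratio of -1.79 ± 1.61 with wide spread. Oligodendrocyte RNA varied in all classes. The summed level of the 8 oligodendrocyte markers was 46.2 to 1033 CPM in set A cells, 613.6 to 1572 in set B cells and 33.7 to 6322 in set C cells, and its part in the cholesterol values was not tested.

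Further lists gave few or no genes. Of 15 calcium-binding protein genes, Calb1, Hpcal4 and S100a10 were lower and 12 neither. Hpcal4, a neuronal calcium sensor, was at 12.9 CPM on average against 53.9 ± 15.96 and 78.8 ± 22.3. Of 29 synaptic organizers Tenm1, a teneurin, was lower and 28 were neither, and of 30 axon guidance genes Unc5d was higher, Ephb6 was lower and 28 were neither. Of 13 carbonic anhydrases and pH regulators other than Car4, Car10 was lower, at 34.3, 24.6 and 32.03 CPM against 125 ± 11.8 and 98.3 ± 33.9, and 12 were neither. None of 22 glutamate receptors, 34 kinase and G-protein signalling genes, 13 genes of the matrix list (which includes Nexn), 11 monoamine and cholinergic receptors, 6 peptide receptors or 11 immediate early genes met the rule. Of 25 cytoskeletal genes Stmn1 was lower, and Nefh, the heavy neurofilament of large axons, was at 476, 662 and 597 CPM against 134, 309.5 and 248 and 254, 399.7 and 237 (log2 ratio 1.16 ± 0.23). Gal, which encodes the neuropeptide galanin, was at 213, 134 and 178 CPM in set A cells and 22.4, 23.7 and 22.5 in set B cells. In set C cells it was 70.2, 149 and 184 CPM, so galanin separated set A from set B and not from set C.

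**Figure D3:**
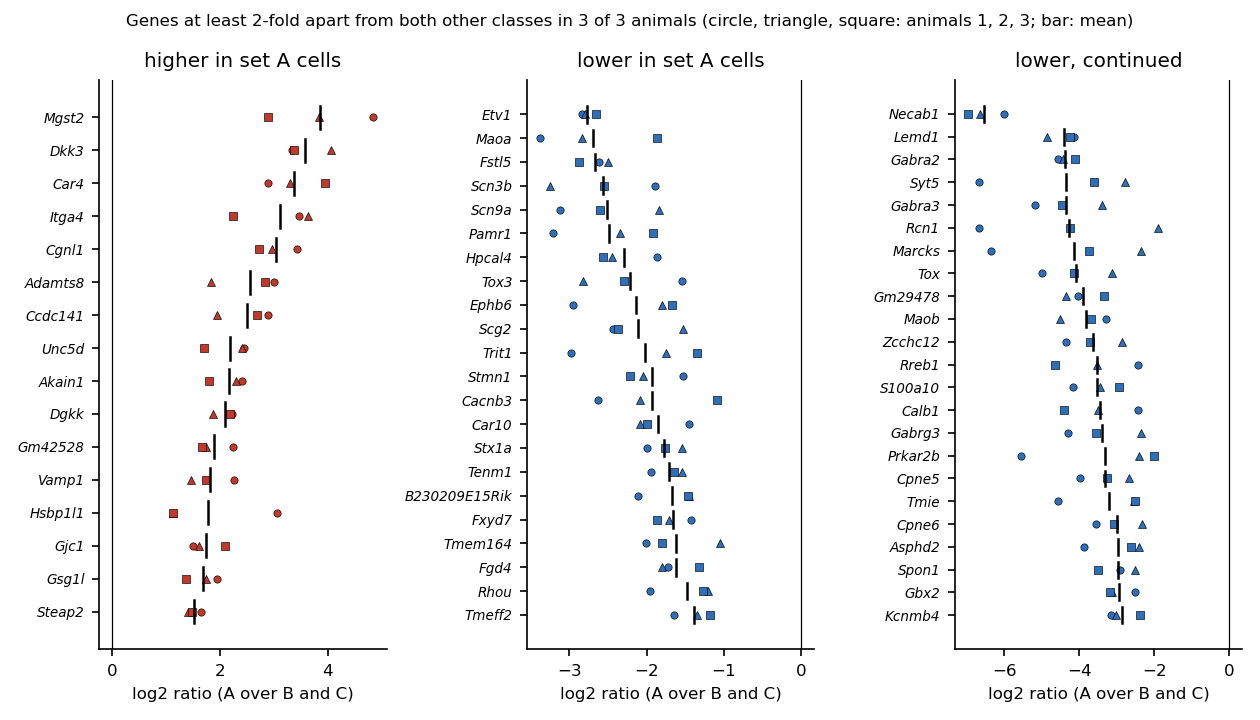
Each symbol is the log2 ratio of set A cells over the mean of set B and set C cells in 1 animal, and the bar is the mean of 3 animals, for the 16 higher genes and the lower genes shown. Steap2 has small spread at 1.51 ± 0.13, Vamp1 is at 1.82 ± 0.40, and Syt5 and Rcn1 have wide spread at -4.35 ± 2.05 and -4.28 ± 2.39.

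Members differed among themselves. Npsr1 was counted in 77 of the 321 members, in 6, 24 and 47 cells of animals 1, 2 and 3. Nexn was at 1306, 853 and 771 CPM in members with an Npsr1 count and 796, 639.7 and 779 in members without, which overlap. Members with Npsr1 were deeper, with medians of 57201.5, 12232 and 65127 counts against 43908, 9228.5 and 57216. Calb1 was counted in 51 members, in 2, 16 and 33 cells. Gal was at 0, 0 and 77.6 CPM in the members with Calb1 and 238, 148 and 205 in those without, with no overlap, and Vamp1 was at 235, 216 and 398 and 466.3, 475 and 474, also with no overlap. The Car4 values overlapped, at 215, 161 and 154 and 144, 215 and 174. The split leaves 2 cells of animal 1 on the Calb1 side and was made after values were seen. Over the members of 1 animal, log values of the 10 pairs of set A genes had Pearson correlations between -0.45 and 0.21 (n = 25, 142 and 154 cells). The rule picked cells on the sum of these genes and the cells share libraries and depth, so this describes the members only.

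Genes of other cell types were counted in members as well. At least 3 markers of another cell type were counted in 18 of 321 members, of which 13 carried oligodendrocyte markers and 2 GABA neuron markers, and in 12 set B and 9 set C cells. The 8 astrocyte markers summed to 126 to 187 CPM in set A cells, above 38.2 to 122 in set B and 51.6 to 75.3 in set C cells. The 8 oligodendrocyte markers, given above, reached 1033 CPM in set A cells, more than Slc17a6. The 8 GABA neuron markers summed to 262 CPM in members of animal 1 against 16.4 and 39.8 in animals 2 and 3, and to at most 23.4 CPM in sets B and C. Sst, a peptide of GABA interneurons, was at 111, 0 and 0.307 CPM and Pvalb, a calcium buffer of GABA neurons, at 74.1, 10.9 and 29.99. The cortical list summed to 23.1 to 34.7 CPM in set A cells, against 50.98 to 75.3 and 28.5 to 68.8. The microglial list summed to 18.2 to 42.3, the endothelial list to 18.5 to 29.4 and the pericyte list to 3.497 to 15.01 CPM in set A cells. In the GABA, cortical, habenular, endothelial, pericyte and choroid plexus lists 1 gene each was at 0 in all members (Dlx6, Neurod2, Lrrc55, Tek, Higd1b and Ttr), and the other genes were counted. The part of these markers in the cell values was not tested. At least 3 of the 8 thalamic glutamatergic markers were counted in 320 of 321 members and at least 3 pan-neuronal markers in 321.

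C1ql2-positive cells, which the rule set aside, could be scored on the same scale. Of 90 such cells set A was highest in 42, set B in 20 and set C in 28. The 42 held a median of 2.5 C1ql2 counts, and 14 of them held 1 count. The medians were 126.5 and 52 counts in the cells highest for sets B and C. A limit of 0 counts for C1ql2 thus removed cells with a single count that otherwise scored as set A.

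The sections are tissue that the cell rule did not use. Of 7827 spots, 685 had the thalamus gene list as the highest of 9 region lists, 583 of these held at least 1000 genes and Slc17a6, and 498 had no C1ql2. The same 3 sets divided them into 162 set A, 144 set B and 192 set C spots, with 42, 45 and 75 set A spots in sections 2, 5 and 6. Their summed counts were 380907, 222877 and 467451. Spots were chosen by the 15 set genes, Slc17a6, C1ql2 and the region lists, so these genes are left out of every count of calls. The other genes come from the same spot counts, and those that vary with the set genes are separated by the same choice. The p-values below thus describe the classes as cut and give no independent support to them. A spot holds several cells, and fewer cells of a type and less RNA per cell cannot be told apart. The spot class is not a cell class, and no boundary follows an anatomical annotation.

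Counts summed per section and class were compared by edgeR's quasi-likelihood test with the section as a block. Against the mean of set B and set C spots, 107 of 6689 genes rose in set A spots (1.60%) and 100 fell (1.49%) at a Benjamini-Hochberg adjusted p under 0.05, 207 in all (3.09%), with 836 (12.5%) at an unadjusted p under 0.05. Against set B spots alone 17 rose (0.254%) and 30 fell (0.448%), 0.703% in all and 8.69% at an unadjusted p under 0.05. Against set C spots alone 191 rose (2.86%) and 178 fell (2.66%), 5.52% in all and 16.6% at an unadjusted p under 0.05. Without the section block 26 rose and 25 fell, and the numbers were 57 and 60 without section 2, 60 and 71 without section 5 and 32 and 33 without section 6. With any 1 section left out, 2 to 5 rose and 8 to 10 fell against set B spots, and 75 to 131 rose and 78 to 147 fell against set C spots. Where a call is said below to be lost without a section, other alternatives may have lost it too.

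The other anteroventral genes rose. Col27a1 was at 50.3, 127 and 52.9 CPM in set A spots of sections 2, 5 and 6. It was at 18.6, 28.1 and 23.2 in set B spots and 8.22, 17.1 and 12.2 in set C spots. No section overlapped (edgeR log2 fold change 2.05 ± 0.31 (SE), adjusted p = 1.23e-06). It passed in the 9 alternatives that gave a value, and DESeq2 gave none. Nexn was at 120.2, 180.5 and 129 CPM in set A spots against 52.8, 65.6 and 92.8 and 19.7, 42.7 and 54.8 (log2 fold change 1.39 ± 0.20, edgeR adjusted p = 1.61e-07) and passed in all 10 alternatives. Npsr1 was not among the genes tested in spots.

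Other genes with large fold changes in spots were not among those called in cells. Sorcs3, a sorting receptor of the VPS10 family, was at 50.3, 68.3 and 45.96 CPM in set A spots against 6.21, 14.1 and 16.6 and 18.1, 8.53 and 22.3 (log2 fold change 1.81 ± 0.36, edgeR adjusted p = 3.20e-04) and was lost without section 2 (adjusted p up to 0.0599). Zeb2, a zinc-finger factor, rose at 1.27 ± 0.27 (edgeR adjusted p = 9.84e-04) and passed in the 9 alternatives that gave a value. Nrp2, a semaphorin receptor, rose at 1.38 ± 0.38 (edgeR adjusted p = 0.0227) and was lost without section 5 or 6. Slitrk6, a synaptic adhesion gene, fell at -1.47 ± 0.29 (edgeR adjusted p = 2.01e-04) and was lost without section 6. Plxnc1, another semaphorin receptor, fell at -1.38 ± 0.28 (edgeR adjusted p = 5.78e-04) and was lost without section 2 (adjusted p up to 0.0555).

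Of the 16 genes high in set A cells, 3 were used for the choice, 11 of the remaining 13 were not among the genes tested in spots, and the 2 tested rose. Vamp1 was at 173, 215 and 244 CPM in set A spots against 149, 65.6 and 96.2 and 95.3, 93.9 and 112 (log2 fold change 1.01 ± 0.16, edgeR adjusted p = 2.18e-06, passing in all 10 alternatives). The anterior section 5 had the widest gap to set B spots. Gsg1l was at 55.9, 53.6 and 52.9 CPM against 31.03, 23.4 and 9.95 and 16.4, 29.9 and 24.4 (log2 fold change 1.31 ± 0.32, edgeR adjusted p = 0.00507). It did not pass without section 2 or without section 6 (adjusted p up to 0.197).

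Of the 46 genes low in set A cells, 3 were used, 36 of the other 43 were tested, and 36 had a negative fold change in spots. Of these 36 genes 16 fell past the threshold, which is 44.4% of the tested cell list and 16% of the 100 genes that fell, beside 1.49% of all genes. None rose. The median over the 36 was -0.70, beside 0.0019 over all genes tested. Cells and spots were divided by the same gene sets, so these shares and directions are not independent of that choice. Calb1 was at 229, 127 and 184 CPM in set A spots against 304, 319 and 424 and 422, 375 and 389.8 (log2 fold change -1.01 ± 0.13, edgeR adjusted p = 7.09e-09). Gbx2 was at 44.7, 19.5 and 36.8 CPM against 83.8, 113 and 92.8 and 133, 145 and 169 (log2 fold change -1.72 ± 0.23, edgeR adjusted p = 6.86e-08). Both passed in all 10 alternatives, and no section's set A value reached a value of the other classes.

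Maob, Scg2, Stmn1 and Zcchc12 also fell in all 10 alternatives. Maob was at 58.7, 48.8 and 52.9 CPM in set A spots against 80.7, 108 and 103 and 168, 158 and 144 (edgeR adjusted p = 3.33e-05). Scg2 was at 232, 215 and 138 CPM against 323, 338 and 295 and 441, 367 and 396 (edgeR adjusted p = 8.53e-08). Stmn1 had a log2 fold change of -0.84 ± 0.070 and Zcchc12 of -1.15 ± 0.16. The fold in spots was smaller than in cells for each of them, as for Calb1, whose set A level in spots was 179.9 ± 51.3 CPM and in cells 34.6 ± 8.59. Etv1, lower in set A cells at -2.77 ± 0.094, had a log2 fold change of -0.15 ± 0.28 in spots (edgeR adjusted p = 0.891). Maoa had -0.11 ± 0.29 (edgeR adjusted p = 0.930).

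**Figure D4:**
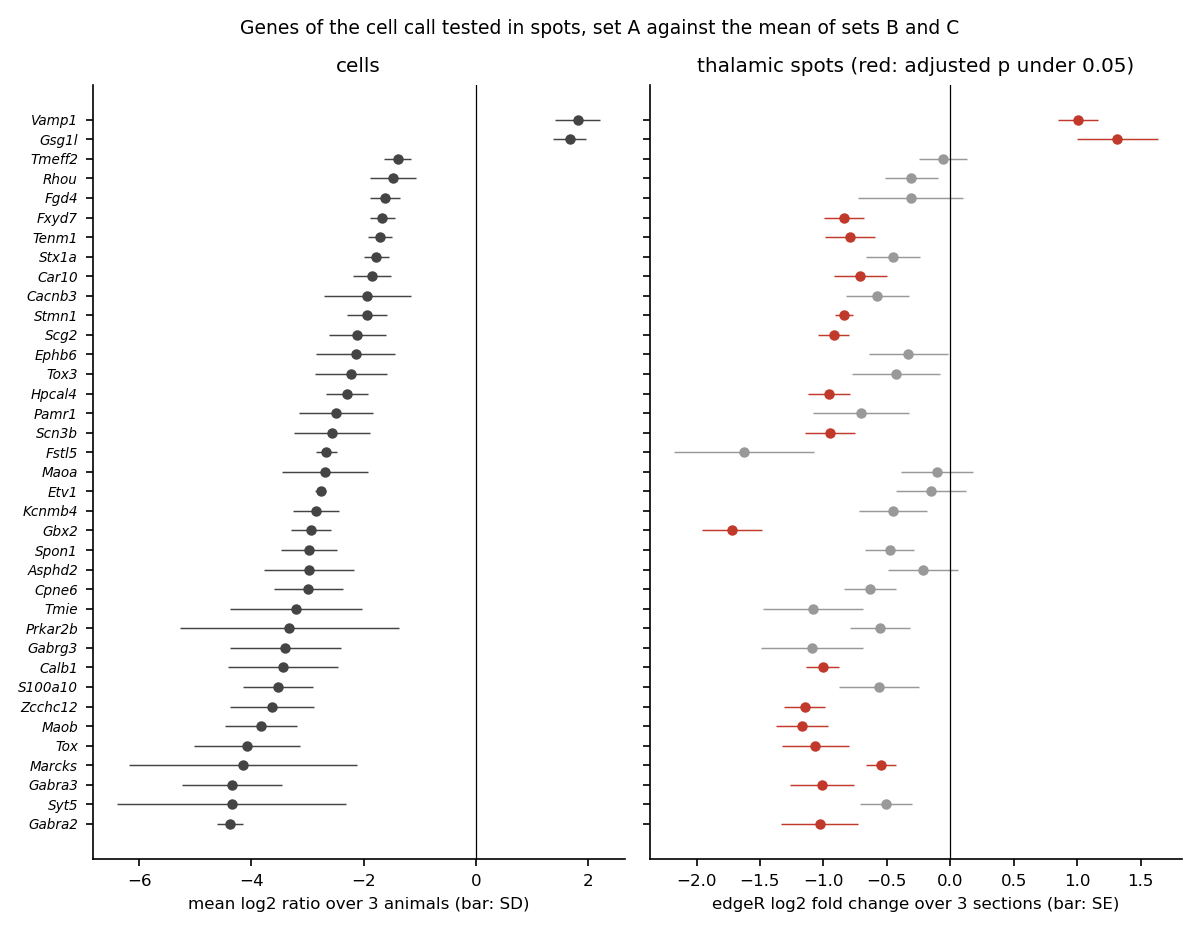
The left panel gives the mean log2 ratio in cells (SD over 3 animals) and the right panel the edgeR log2 fold change in thalamic spots (SE), set A against the mean of sets B and C, for genes of the cell call tested in spots. Vamp1 and Gsg1l lie above 0 in both panels and every lower gene shown lies below 0 in both. Red marks genes that passed in spots, such as Calb1 at -1.01 ± 0.13 and Gbx2 at -1.72 ± 0.23.

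The GABA-A receptor list went both ways in spots. Of 15 tested genes, 3 rose, Gabra4 and Gabrd among them, Gabra2, Gabra3 and Gabrg1 fell, and 9 did not pass. Gabrd was at 181, 139 and 92.5 CPM in set A, B and C spots (log2 fold change 0.69 ± 0.15, edgeR adjusted p = 0.00181) and Gabra4 at 341, 286 and 193 (log2 fold change 0.50 ± 0.12, edgeR adjusted p = 0.00246). Gabra2 was at 19.6, 34.1 and 29.9 CPM against 40.3, 56.3 and 56.4 and 57.5, 107 and 44.7 (log2 fold change -1.03 ± 0.30, edgeR adjusted p = 0.0353). Its call was lost in 5 of the 9 alternatives that gave a value, among them each section left out in turn, with adjusted p up to 0.266. Gabra3 had a log2 fold change of -1.01 ± 0.25 (edgeR adjusted p = 0.00777) and was lost without section 2 and without section 6, with adjusted p up to 0.330. The calls of Gabrd and Gabra4 were lost without section 6, that of Gabra4 also without section 5, and that of Gabrg1 without section 5 or 6, with adjusted p up to 0.407, 0.0982 and 0.550. Those of Gabra3, Gabrd, Gabra4 and Gabrg1 were also lost without the section block, and those of Gabrd and Gabra4 with DESeq2.

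Release and channel genes rose in part. Of 25 tested release genes, Snap25, Cplx1, Vamp1 and Cplx2 rose, Syn2, Syt17 and Syt4 fell and 18 did not pass. Cplx1 was at 803, 480.1 and 298 CPM (log2 fold change 1.09 ± 0.089, edgeR adjusted p = 9.12e-17), and Cplx2 at 136, 69.2 and 59.3 (edgeR adjusted p = 6.27e-05). Cplx1, Cplx2, Vamp1 and Syn2 passed in all 10 alternatives. Of 13 voltage-gated potassium channels outside the rule, Kcnd3, Kcna2 and Kcnc2 rose, 0 fell and 10 did not pass. Kcnd3, an A-type channel, had a log2 fold change of 0.82 ± 0.20 (edgeR adjusted p = 0.00641). Kcnc2, a fast delayed rectifier, had 0.52 ± 0.12 (edgeR adjusted p = 0.00269). Neither of these 2 passed without section 6 or without the section block, and Kcnc2 did not pass with DESeq2. Kcna2 was lost in 9 of 10 alternatives. Scn3b fell at -0.95 ± 0.20 on the log2 scale (edgeR adjusted p = 6.77e-04) and was lost without section 6, with adjusted p up to 0.0832.

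Of 36 transcription factor genes tested, Btbd3, Shox2, Nfia, Nr2f2 and Etv5 rose, Gbx2, Lhx9, Tox, Mef2a and Zic5 fell and 26 did not pass. Etv5, an ETS factor, had a log2 fold change of 1.09 ± 0.23 in spots (edgeR adjusted p = 9.91e-04) and a log2 ratio of 1.15 ± 0.15 in cells, and it passed in the 9 alternatives that gave a value. Nr2f2 was lost in each of 9, and Shox2, Nfia, Lhx9 and Zic5 with each section left out in turn. Tox did not pass without section 5 or 6, Btbd3 without section 2 or 5, and Mef2a without section 2 or 6. Of 8 genes of the matrix list, Nexn, Col27a1 and Hapln4 rose and 5 did not pass. Nexn is on that list though it encodes an actin-binding protein, and Hapln4 was lost without section 2 or 6. Of 19 cholesterol synthesis genes Sqle, squalene epoxidase, fell at -0.81 ± 0.22 (edgeR adjusted p = 0.0195), 0 rose and 18 did not pass, with a list median of -0.15, and Sqle was lost without section 6 (adjusted p up to 0.711). Oxt, which encodes oxytocin, fell at -2.88 ± 0.21 (edgeR adjusted p = 6.40e-19), but it was at 9.86, 128 and 1035 CPM in set C spots of sections 2, 5 and 6 and did not pass without section 6 (adjusted p up to 0.363 over the alternatives). In set A cells Oxt was at most 1.13 CPM.

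**Figure D5:**
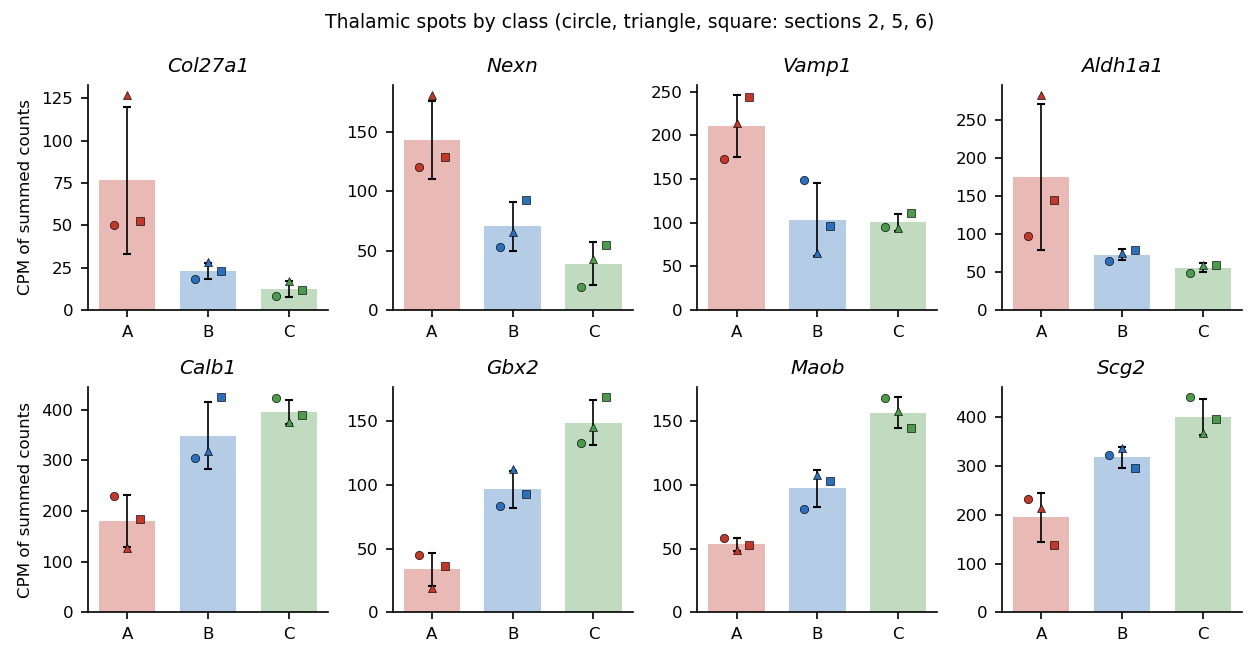
Bars give the mean CPM of summed counts in set A, B and C thalamic spots over 3 sections, error bars the SD and symbols the sections. Col27a1, Nexn, Vamp1 and Aldh1a1 are highest in set A spots and Calb1, Gbx2, Maob and Scg2 lowest, with the anterior section 5 giving the highest Col27a1 and Aldh1a1 values of 127 and 283 CPM.

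Of the 107 genes that rose in spots, 91 were measured in cells and 78 had a positive mean log2 ratio there, 59 of them in 3 of 3 animals. Of the 100 that fell, 92 were measured and 91 had a negative mean, 78 of them in 3 of 3 animals. Over all 8614 genes measured in cells, 1440 were above and 1841 below the mean of set B and set C in 3 of 3 animals. The same gene sets divided the cells and the spots, so this agreement is not independent of that choice. Glul and Slc1a2, genes of astrocytic glutamate uptake and glutamine synthesis, rose in spots and were lower in set A cells of 3 of 3 animals, at -1.55 ± 1.14 and -0.26 ± 0.076. The spot call of Glul was lost without section 5 or 6 and that of Slc1a2 without section 2 or 5. Aldh1a1, a retinaldehyde dehydrogenase, rose at 1.29 ± 0.18 (edgeR adjusted p = 1.71e-07) from 55.98 ± 5.78 CPM in set C to 175 ± 96.2 in set A spots, and set A cells held 0.3297 ± 0.342 CPM. Myrf, a factor of myelinating oligodendrocytes, rose in spots as well (log2 fold change 1.10 ± 0.29, edgeR adjusted p = 0.0131) and was lost without section 6. The 8 oligodendrocyte markers summed to 6452 to 8717 CPM in set A spots, 6422 to 8325 in set B spots and 5026 to 5135 in set C spots. The 8 pericyte and smooth muscle markers summed to 184 to 229 CPM in set A spots, above 136 to 164 in set B and 112 to 155 in set C spots. The 8 GABA neuron markers summed to 319 to 753, 324 to 714 and 211 to 401 CPM, and the endothelial list to 283 to 394, 189 to 313 and 180.0 to 230.3. The cortical list, which includes Slc17a7, summed to 181, 301 and 218 CPM in set A spots of sections 2, 5 and 6. It was at 100, 146 and 158 CPM in set B spots and 101, 84.0 and 190 in set C spots, so set A was highest in each section. The 8 astrocyte markers summed to 1935 to 2190, 1838 to 2065 and 1912 to 2047 CPM, and the ependymal and choroid plexus list to 511 to 1985, 206 to 1020.4 and 204 to 1204. Their part in the spot results was not tested.

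Slc17a7, a region list gene and so left out of the counts, had a log2 fold change of 1.14 ± 0.18 in set A spots. In cells it was at 0, 6.14 and 7.88 CPM in set A, 11.95 ± 9.099 in set B and 16.01 ± 16.5 in set C, and at 79.5 ± 7.22 in C1ql2-positive cells. It encodes VGLUT1, which loads glutamate into vesicles mostly in cortical neurons. Its level in set A spots was 131, 244 and 163 CPM against 55.9, 84.4 and 96.2 and 64.1, 29.9 and 106. Keeping spots with C1ql2 counts raised the number of genes that rose from 107 to 191 and of genes that fell from 100 to 203.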

How the data were processed

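Per the labels, single neurons were dissociated from acute slices, harvested by hand, barcoded at reverse transcription and pooled by plate, and 10-micrometre sections went through the Visium protocol. The authors deposited raw counts per gene and well, and raw counts per gene and spot, with other deposited columns for the animal of a well and the section of a spot. The submitters' processing notes name Seurat, Space Ranger, NCBIM37 and mm10 without roles. The aligner, the counter and whether reads or molecules were counted are not given in the sources used here. Labels do not tie the 14 cell samples to the 14 plates, so the animal number of the well table served as the replicate.

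Members and gene lists were chosen with earlier results of these data known. Counts were summed per class and animal or section and given as CPM, with 1 CPM added for ratios. Spot sums were fitted with edgeR 4.0.16 in R 4.3.3 (TMM, filterByExpr, quasi-likelihood test, section as a block, Benjamini-Hochberg adjustment), with DESeq2 1.42.0 as an alternative. The SE of a fold change was derived from the F statistic. Section numbers pair the sums, since all classes of a section come from the same slice. Residuals from class means had a median correlation of 0.149 (0.0928 to 0.317) over the 9 same-section pairs. The median between sections was -0.144. Taking out class means makes pairs of the same class negative by construction, so that median is no baseline for the first. The edgeR script was tested on simulated data. Other scripts used Python 3.11.15 with pandas 2.3.3.

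Named genes were the set genes, the 15 largest ratios per direction in cells, the 10 largest fold changes per direction in spots, up to 4 members of each functional list by ratio in cells, and Col27a1, Nexn, Npsr1, Calb1, Tcf7l2, Slc17a7, Gal and Serpinb7. Genes outside this rule were chosen after their values were seen: Steap2 and Maoa in cells, list members called in spots but not ranked in cells, and Glul, Slc1a2 and Myrf. Doublets were not called, as cells were picked singly by hand; an alternative left out cells with at least 3 markers of another type. Other alternatives changed filters, scaling, depth, class borders and the animals or sections used. Some genes counted in the totals are not reported here.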

Additional observations from a re-analysis of the deposited data

Results flagged for a closer look

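Reporter sequences in the count table were not used in any comparison. They had 4 counts among all 26142680 counts of the 321 members (0.153 CPM) and 0 among all 8617393 counts of the 128 control wells. The members' total is larger than their counts of mouse genes, which were 1.43e+06, 1.47e+06 and 9.77e+06 in animals 1, 2 and 3. These CPM values are therefore per all counts and are not on the scale of the CPM values above. A count of 0 in the control wells allows up to 3 counts, or 0.348 CPM. Per all counts, the level in members was thus not distinguishable from that of the control wells at this depth. A comparison per mouse gene counts was not made.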

How the results depend on the processing

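No called value of a named gene reversed direction in an alternative. In cells, the number of higher genes (16) became 25 with a margin of at least 0.2, 35 with no minimum CPM, and 36 to 46 with an animal left out, where 2 of 2 animals suffice. The lower genes (46) became 80 with no minimum CPM and 64 to 75 with an animal left out. In each alternative other than that with no minimum CPM, 6 of the 16 (Akain1, Car4, Ccdc141, Dkk3, Itga4 and Vamp1) and 19 of the 46 met the rule. The number of set A cells became 272 of 703 with scoring after thinning to 5000 counts, and 251 of these were among the 321. Thinning to 5000 counts lowered the shares of members with a count to 45.1% for Car4, 47.9% for Ccdc141, 23.4% for Itga4, 35.6% for Kcnf1 and 63.0% for Kcnq3. In spots, the fit with no replicate block called 26 higher and 25 lower genes against the mean of sets B and C, 53 and 55 against set C, and 0 and 0 against set B, where 155 and 173 genes had an unadjusted p under 0.05 in edgeR and DESeq2 called 1 and 2. With a section left out the counts were 32 to 60 and 33 to 71 against the mean, 75 to 131 and 78 to 147 against set C, and 2 to 5 and 8 to 10 against set B. The lowest counts against the mean and against set C came without section 6, and those against set B without section 5 for higher and section 6 for lower genes. Keeping spots with C1ql2 gave 191 and 203 against the mean and 54 and 67 against set B. DESeq2 called 18 and 28 against the mean and 47 and 50 against set C, and gave no adjusted p for 4048 of 6735 genes. The cause of these differences was not tested, beyond the fewer sections or genes tested. The spot test did not cover 11 of the 13 genes high in set A cells outside the rule, and why they were missing was not tested.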
